A study of Saccharomyces cerevisiae with 12 samples.

Results

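The 42 nuclear genes described here encode the respiratory chain and the ATP synthase of budding yeast, Saccharomyces cerevisiae: 3 NADH dehydrogenases, 4 subunits of complex II, 9 of complex III, 3 genes of the cytochrome c group, 9 of complex IV and 14 of the ATP synthase and its inhibitor. All were taken by gene name from the 6692 coding genes of the deposited annotation. The study asked how RNAs are distributed between nucleus and cytoplasm, and counted RNA-seq reads in 12 libraries, 3 in each of 4 groups: cytoplasm and total lysate of mex67-5 xpo1-1 cells, and cytoplasm and total lysate of wild-type (WT) cells. All cells, WT included, had been shifted to 37 °C for 1 h. mex67-5 and xpo1-1 are temperature-sensitive alleles of the mRNA export receptor Mex67 and of the exportin Xpo1 (Crm1), so the mutant was measured at the temperature that inactivates both receptors. Per the study's strain table the chromosomal copies are replaced in the mutant by HIS3 and TRP1 marker genes and the mutant alleles sit on plasmids, while the labels name BY4741 as the strain of every library. The 2 export mutations, the plasmids, the markers and any further difference in strain background therefore cannot be told apart in a comparison of mutant with WT. The samples are biologically independent according to the study, and the cytoplasm was released from spheroplasts, cells stripped of their wall.

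Respiration passes electrons from NADH and succinate over ubiquinone to complex III, from there over cytochrome c to complex IV and on to oxygen, and the proton gradient that complexes III and IV build drives the ATP synthase. Baker's yeast has no proton-pumping complex I and oxidises NADH with single-protein dehydrogenases on either face of the inner mitochondrial membrane. Most subunits are encoded in the nucleus, translated in the cytosol or at the mitochondrial surface and imported, whereas a few core subunits are encoded in mitochondrial DNA. Transcription of the nuclear genes is held low in glucose and is raised by heme and oxygen through the activator Hap1 and by respiratory growth through the Hap2/3/4/5 complex, which binds a CCAAT box.

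In these files the reads of a gene lie on the feature of the opposite strand. Over the same members, the counts per base in WT total lysate were higher on the opposite feature than on the gene's own feature for 37 of 40, with a median log2 ratio of 5.94. The 3 exceptions, COX7, CYC1 and CYC7, each face another coding gene. The mRNA of each gene was therefore read from the opposite-strand feature that covers at least 50% of the gene, and antisense reads from the gene's own feature. A reading was found for 40 of the 42. COX13 and QCR7 fell just short, with 49.4 and 47.7% of the gene covered, and CYC7 and SDH4 just passed, with 51.7 and 53% covered. Many of these features are long: for 22 of the 40 the feature holds less than 20% of other coding genes on the gene's strand and is called read alone, and 18 share it with neighbours, among them all 4 of complex II. The reading of SDH2, for example, is 90.4% other genes, including the polyubiquitin gene UBI4. Results are given for all 40 and, where they differ, for the 22 read alone. All 40 passed the filter on low counts, a mean above 40, in each of the 5 comparisons.

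Total counts ran from 24532091 to 37361004 per library, and replicates correlated across features with Spearman coefficients of 0.973 to 0.994. HIS3, the marker in the mutant's MEX67 locus, had 10909 to 20357 counts in the 6 mutant libraries and 11 to 329 in the 6 WT libraries on its opposite feature. MEX67, which the mutant carries on a plasmid as the mex67-5 allele, had 8532 to 11609 counts on its opposite feature in mutant libraries and 1782 to 2581 in WT. On its own feature, which holds antisense reads under this reading, MEX67 had 6806 to 10488 counts in mutant libraries and 319 to 873 in WT. Levels are TMM-scaled CPM, the counts of a feature over those of its library in a fixed unit. TMM, edgeR's trimmed mean of ratios, sets most features to no change, and its factors ran from 1.272 to 1.397 in mutant cytoplasm, 0.925 to 1.07 in mutant total, 0.889 to 0.981 in WT cytoplasm and 0.815 to 0.835 in WT total. Scaled by library totals alone, the median log2 change of all features tested would be 0.50 in place of -0.01 for cytoplasm against total in the mutant and 0.16 in place of 0.02 in WT. For mutant against WT it would be 0.24 in place of 0.01 in total lysate and 0.57 in place of 0.04 in cytoplasm. Changes are relative to the TMM scale. They were tested with edgeR's quasi-likelihood test, with Benjamini-Hochberg adjustment over all features tested and a threshold of 0.05.

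Most transcripts of the respiratory chain were lower in the cytoplasmic fraction than in total lysate in the mutant, and in WT the number that passed depended on whether replicates were paired. In mex67-5 xpo1-1 cells, 32 of the 40 were lower, 1 was higher and 7 did not pass the test, and the median change was -0.77 on the log2 scale. In WT cells 14 were lower, 2 higher and 24 not called, with a median of -0.36. Over all features, 28.7% were called lower and 30.0% higher in the mutant, with a median of -0.01, and 17.6% lower and 22.3% higher in WT, with a median of 0.02. The 22 members read alone gave 19 lower and 1 higher in the mutant and 9 lower and 0 higher in WT, with medians of -0.84 and -0.43. Over all coding genes read alone in the same way the medians were -0.24 in the mutant and -0.05 in WT. In bulk fractions, less of an RNA in the cytoplasm and a lower recovery of that RNA in the fraction cannot be told apart.

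The labels only number the replicates. Same-numbered WT cytoplasm and total libraries deviated together, at correlations of 0.245, 0.394 and 0.115, and were taken as paired in the fit with a replicate block only. All WT calls, p-values and lost calls given without mention of the block come from the unpaired fit. Same-numbered cytoplasm libraries of mutant and WT also correlated, at 0.0936, 0.274 and 0.18, so the pairing is an assumption. With the replicate number as a block 28 members were lower and 4 higher in WT, against 24.6 and 27.6% of all features. The 4 that were higher under the pairing were SDH2, SDH3, ATP15 and NDI1. WT replicate 2 held the highest value of 31 of 40 members in cytoplasm and of 37 of 40 in total, with a median log2 CPM of 6.27 in cytoplasm and 6.81 in total, against 5.82 and 6.05 in the other WT cytoplasm libraries and 6.22 and 6.37 in the other WT total libraries. Without the pairing, the WT count of lower members was 1 without WT cytoplasm replicate 3, 2 without WT total replicate 2, 8 without WT cytoplasm replicate 1 and 9 without either WT total replicate 1 or 3. Of the WT calls, that of ATP17 alone held whichever library was left out, whereas 29 of the 33 mutant calls did. With library totals in place of TMM the split was 14 lower and 4 higher in the mutant and 2 lower and 3 higher in WT, and the medians, -0.27 and -0.22, stayed below the median of all features.

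**Figure D1:**
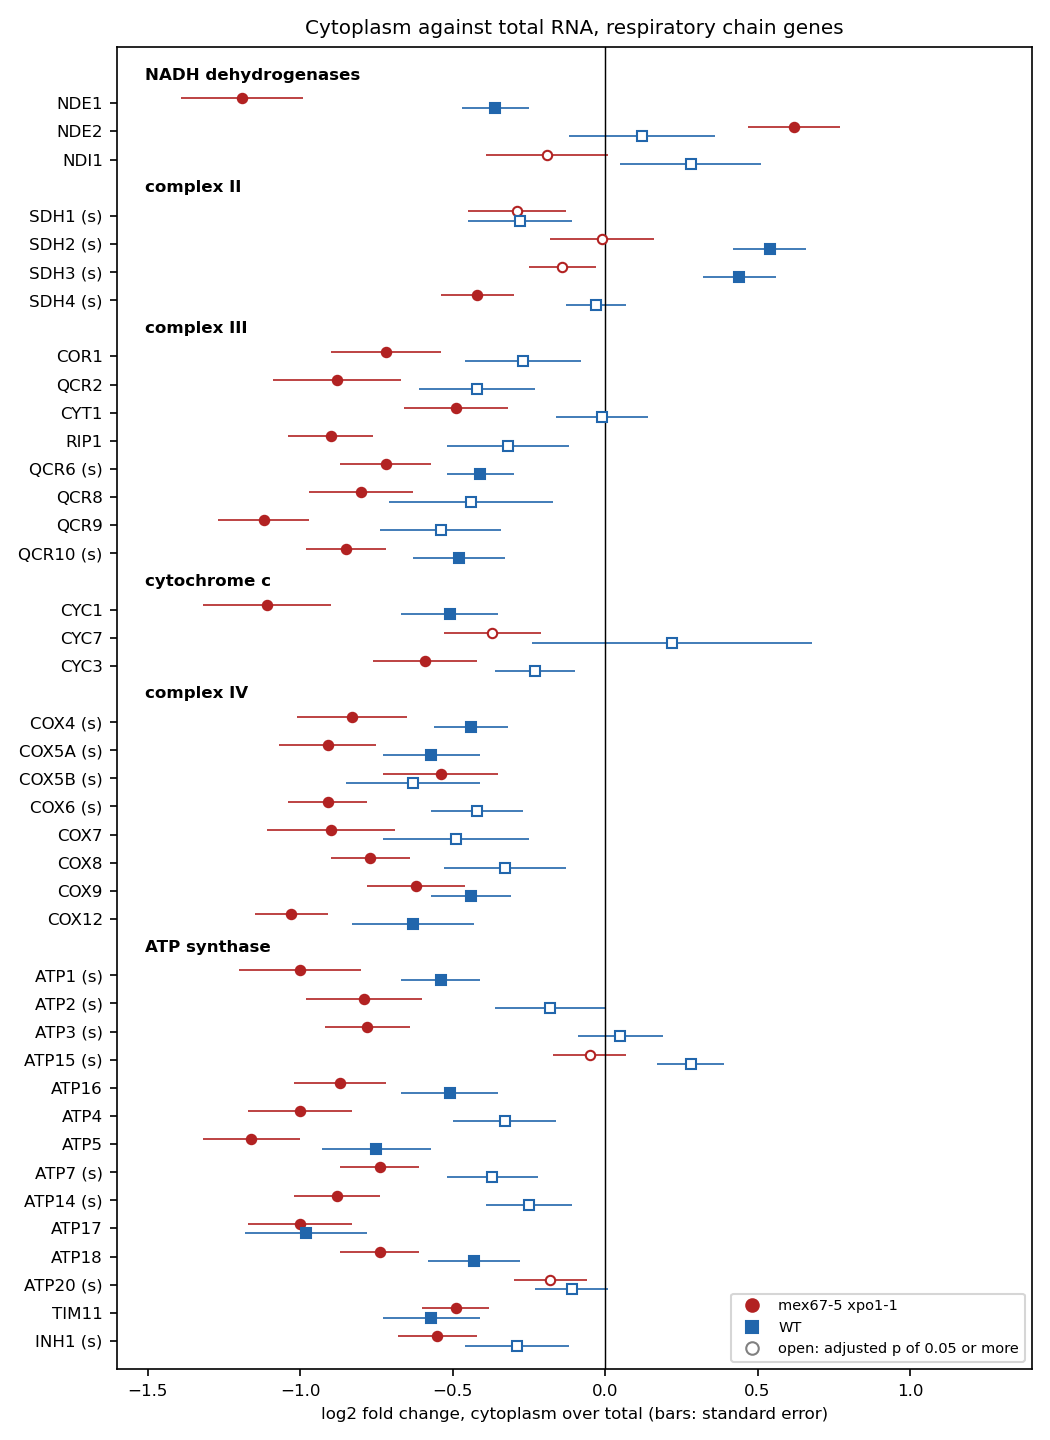
Log2 fold change of cytoplasm over total lysate (x axis) for the 40 respiratory chain genes with a reading, by complex, in mex67-5 xpo1-1 cells (red circles) and WT cells (blue squares), with the standard error from edgeR. Filled symbols passed the threshold of 0.05 on the adjusted p, and (s) marks a reading shared with other coding genes. In the mutant 39 of 40 symbols lie left of 0 and 33 of 40 do in WT, and scaled by library totals 29 of 40 lie left of 0 in the mutant and 30 of 40 in WT.

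Between strains most of the genes that were higher in the mutant lay in complexes III and IV and the cytochrome c group. In total lysate of mex67-5 xpo1-1 cells 17 of the 40 were higher than in WT, 3 were lower and 20 did not pass, with a median of 0.30, where 26.9% of all features were higher and 25.6% lower. Counted by complex, all 3 genes of the cytochrome c group were higher, 6 of 8 of complex IV, 4 of 8 of complex III, 2 of 3 NADH dehydrogenases and 1 of 4 of complex II, and 1 of 14 of the ATP synthase. In the cytoplasm 9 were higher and 9 lower, with a median of -0.02, where 32.3% of all features were higher and 28.9% lower. Those 9 that were higher in the cytoplasm, COX5A, COX8, COX12, CYT1, RIP1, SDH1, NDI1, CYC1 and CYC7, were also higher in total lysate. Of the 9 that were lower, 8 were shared readings, and among the 22 read alone 7 were higher and 1, ATP17, was lower, with a median of 0.29. The 22 read alone had 12 higher and 2 lower in total lysate, with a median of 0.56. Over all coding genes read alone the medians ran the other way, -0.12 in total lysate and -0.24 in cytoplasm. The direction in cytoplasm follows the scaling: by library totals 22 members were higher and 1 lower, with a median of 0.50 beside 0.57 for all features, whereas in total lysate 24 were higher and 1 lower. Without WT cytoplasm replicate 3, 5 members were higher in cytoplasm, and without mutant cytoplasm replicate 1 or 2, 4 were lower. Without WT total replicate 2 or mutant total replicate 3, 1 member was lower in total lysate.

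**Figure D2:**
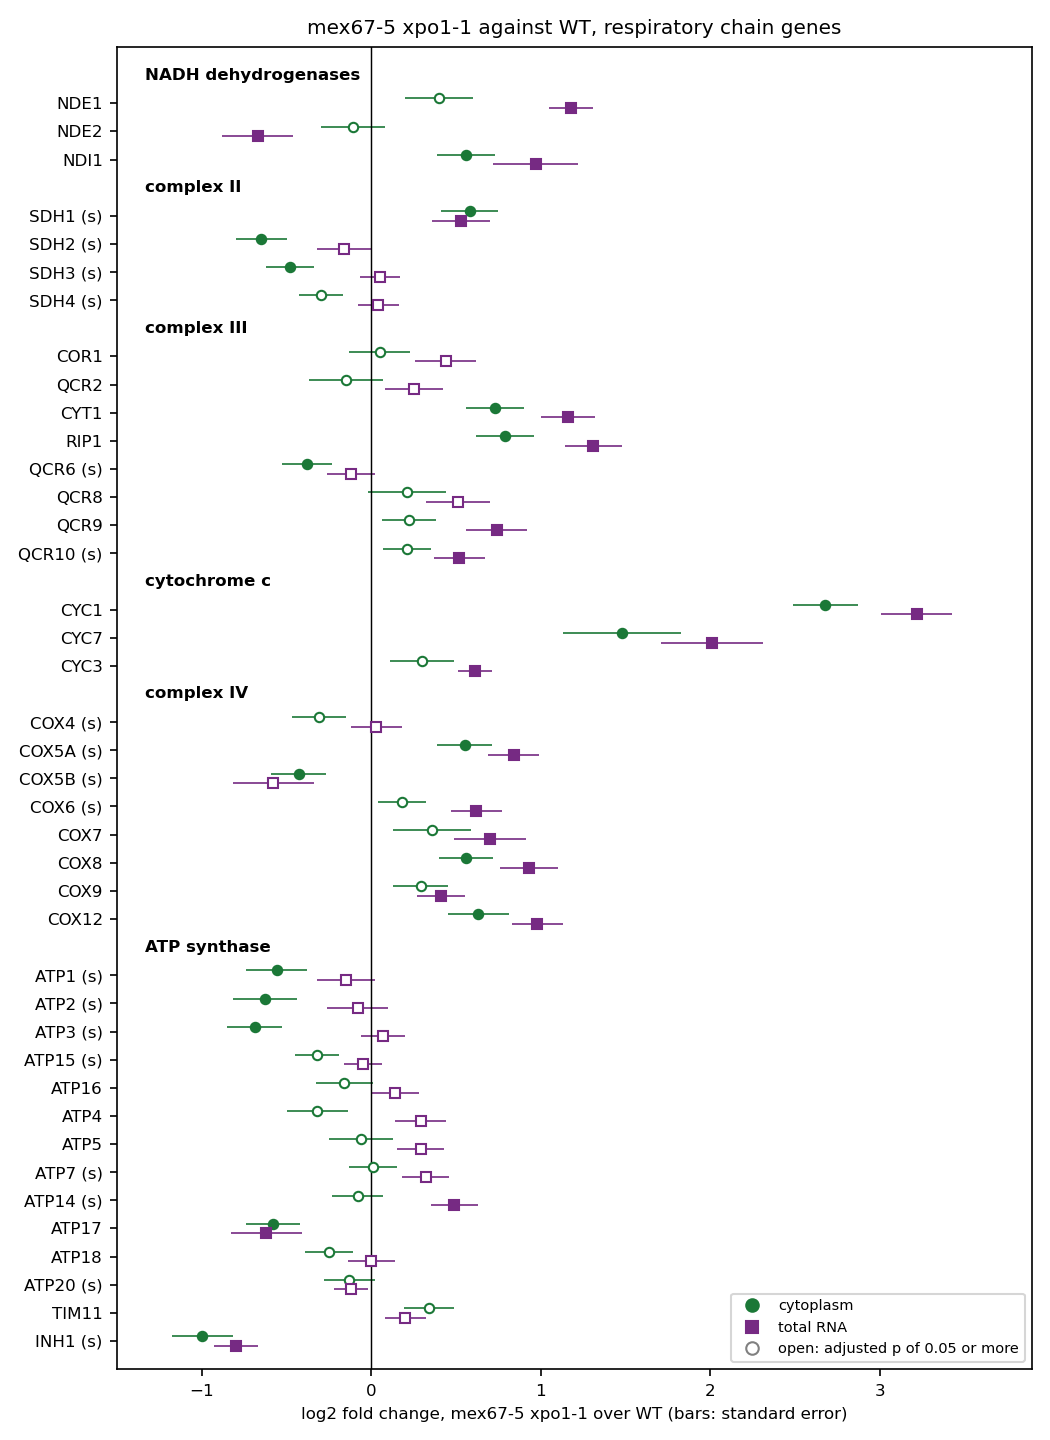
Log2 fold change of mex67-5 xpo1-1 over WT (x axis) for the same 40 genes in cytoplasm (green circles) and in total lysate (purple squares), with the standard error from edgeR. Filled symbols passed the threshold and (s) marks a shared reading. CYC1 and CYC7 lie farthest to the right in both, at 2.68 and 1.48 in cytoplasm and 3.22 and 2.01 in total lysate, and INH1 farthest to the left. Scaled by library totals, 34 of 40 lie right of 0 in cytoplasm and 36 of 40 in total lysate.

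CYC1 and CYC7 had the largest increases of the 40. CYC1, which encodes the major form, iso-1-cytochrome c, lies on chromosome X at 526279 to 527055 (sacCer3, plus strand) and had 205, 202 and 133 CPM in mutant total lysate, against 23.3, 19.4 and 15.9 CPM in WT total lysate. In cytoplasm it had 94.6, 63.9 and 95.8 CPM in the mutant and 13.5, 14.7 and 12.1 CPM in WT. Every mutant library lay above every WT library in both fractions. The log2 fold change was 3.22 ± 0.21 (SE), adjusted p = 6.84e-06 by edgeR in total lysate and 2.68 ± 0.19 (SE), adjusted p = 8.72e-06 by edgeR in cytoplasm. CYC7, on chromosome V, encodes iso-2-cytochrome c, the minor form that is relatively more abundant when oxygen is scarce. It had 78.8, 103 and 79 CPM in mutant total lysate against 11.9, 32.3 and 21.7 CPM in WT. CYC7 had 67.5, 58.6 and 79.3 CPM in mutant cytoplasm against 11.6, 38.6 and 24.3 CPM in WT cytoplasm. Again the strains did not overlap, and the spread was among the WT libraries, with replicate 2 highest and replicate 1 lowest in both WT fractions. The log2 fold change was 2.01 ± 0.30 (SE), adjusted p = 0.000633 by edgeR in total lysate and 1.48 ± 0.35 (SE), adjusted p = 0.00461 by edgeR in cytoplasm. Both readings lie opposite part of another gene, UTR1 for CYC1 and UTR2 for CYC7. CYC3, the heme lyase that attaches heme to cytochrome c, was higher in mutant total lysate by 0.61 ± 0.10 (SE), adjusted p = 0.00119 by edgeR, while its cytoplasmic difference of 0.30 ± 0.19 did not pass (adjusted p = 0.192 by edgeR).

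Per kilobase of the feature read, CYC1 stood at 83 ± 18.7 RPKM in mutant total lysate and 9.02 ± 1.71 RPKM in WT total lysate, and CYC7 at 49.1 ± 7.96 and 12.4 ± 5.75 RPKM (mean and SD, n = 3). CYC1 lay above CYC7 in each of the 3 mutant libraries, and in WT the libraries of the 2 genes overlapped. The features read are longer than the genes, and with the length of the gene inside the feature the means were 251 for CYC1 and 199 for CYC7 in mutant total lysate, against 27.3 and 50.2 in WT, so the ratio of these genes depends on the length used. Within each strain CYC1 was lower in cytoplasm than in total, at -1.11 ± 0.21 (SE), adjusted p = 0.00221 by edgeR in the mutant and -0.51 ± 0.16 (SE), adjusted p = 0.036 by edgeR in WT. The WT call was lost without WT cytoplasm replicate 3 or WT total replicate 1 or 2 (-0.46, -0.38 and -0.52). For CYC7 the fractions overlapped in both strains, with log2 changes of -0.37 ± 0.16 in the mutant and 0.22 ± 0.46 in WT (SE), adjusted p = 0.0701 and 0.728 by edgeR.

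The letters before the start codons were searched in the reference genome, R64, whose start codons fell inside the deposited feature for 42 of 42 members. CCAAT or its reverse complement stood in the 400 bases before the start codon of 36 of 42 members, that is 85.7%, against 52.8% of the 5987 nuclear coding genes with a full window. The longer box TNATTGGT, written for the Hap2/3/4/5 complex and holding CCAAT in reverse, stood before 18 of 42 members, 42.9%, against 6.97% of all. Of the 17 members called higher in mutant total lysate 8 held it, and of the other 25, 10. Those 25 take in COX13 and QCR7, which hold the box but have no reading under the rule. On features of lower coverage both were higher in mutant total lysate. A pair of CGG triplets 6 bases apart, on either strand, the spacing of Hap1 sites, stood before 7 of 42 members, 16.7%, against 3.44% of all. It stood before 4 of the 17 and 3 of the other 25. To show what was matched before 4 genes that were higher in the mutant in both fractions, 30 bases around each match at CYC1, COX8, RIP1 and COX12 are printed 5′ to 3′ on the strand of the gene, from the R64 sequence with the matched letters in capitals. The first 3 hold the CGG pair and the last 3 the longer CCAAT box.
CYC1, plus strand, chrX:525966-525995: atgttttcaCCGATCTTTCCGgtctctttg
CYC1, plus strand, chrX:525989-526018: ctctttggcCGGGGTTTACGGacgatggca
COX8, minus strand, chrXII:910124-910153: agaagtgttCGGTGTTTACGGaaaagctag
COX8, minus strand, chrXII:910149-910178: aaacggtttgcACCAATCAtacgagagaag
RIP1, plus strand, chrV:107001-107030: ctccataacggACCAATCAgcgttttgcgc
COX12, minus strand, chrXII:225360-225389: tcataacattgACCAATCAattttcagaaa
The matches begin 360 and 337 bases before the start codon of CYC1, 179 and 202 before that of COX8, 248 before that of RIP1 and 206 before that of COX12. Of the 9 members higher in the mutant in both fractions, COX5A, CYT1 and CYC7 had no match of either longer box in the 400 bases. Genes that were lower in the mutant in a fraction held them as well. The longer CCAAT box stood before ATP3, ATP17 and COX5B, and the CGG pair before NDE2 and QCR6. INH1, ATP1, ATP2, SDH2 and SDH3, which were lower too, held neither. A match is a description of letters in the reference strain, and neither binding nor the strains' own sequences were measured.

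In complex III 4 of the 8 genes, RIP1, CYT1, QCR9 and QCR10, were higher in mutant total lysate. RIP1, the Rieske iron-sulfur protein on chromosome V, had 236, 208 and 183 CPM in mutant total lysate against 72.6, 106 and 77.2 CPM in WT. In cytoplasm it had 115, 104 and 124 CPM in the mutant against 56.9, 81.7 and 62.1 CPM in WT. The strains did not overlap in either fraction, and the log2 fold change was 1.31 ± 0.17 (SE), adjusted p = 0.000276 by edgeR in total lysate and 0.79 ± 0.17 (SE), adjusted p = 0.00277 by edgeR in cytoplasm. CYT1, cytochrome c1, which hands electrons on to cytochrome c, averaged 307 ± 44.2 CPM in mutant total lysate and 139.5 ± 22.7 CPM in WT (SD, n = 3 each), a log2 fold change of 1.16 ± 0.16 (SE), adjusted p = 0.000438 by edgeR, and rose by 0.73 ± 0.17 (SE), adjusted p = 0.00392 by edgeR in cytoplasm. COR1, a core protein, had 285, 362 and 288 CPM in mutant total lysate against 199.8, 292 and 208 CPM in WT. COR1 had 178, 166 and 234 CPM in mutant cytoplasm against 165, 223 and 179 CPM in WT cytoplasm. Its libraries overlapped, and the changes of 0.44 ± 0.18 and 0.05 ± 0.18 (SE) did not pass (adjusted p = 0.0643 and 0.818 by edgeR). QCR2, the other core protein, had 250, 321 and 266 CPM in mutant total lysate against 205, 292 and 216 CPM in WT. QCR2 had 134, 125 and 205 CPM in mutant cytoplasm against 144, 206 and 171 CPM in WT cytoplasm. It too overlapped between strains, at 0.25 ± 0.17 in total lysate and -0.15 ± 0.22 in cytoplasm (SE), adjusted p = 0.236 and 0.574 by edgeR. Of the small subunits QCR9 and QCR10 were higher in mutant total lysate, at log2 changes of 0.74 and 0.52, QCR8 missed the threshold at 0.51, and QCR6, a shared reading with RPL29 and 3 further genes, was lower in cytoplasm at -0.38, which turned to 0.15 when scaled by library totals. The call of QCR10 was lost without WT total replicate 1 or 3 (0.44 and 0.44), and that of QCR6 without mutant cytoplasm replicate 1 or 2 or WT cytoplasm replicate 1 or 3 (-0.33, -0.31, -0.36 and -0.39).

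All 8 complex III genes were lower in cytoplasm than in total in the mutant, from -1.12 to -0.49 on the log2 scale. In WT 2 of 8 were lower, or 7 of 8 with the replicate block. These counts are on the TMM scale. Scaled by library totals, the mutant value of CYT1 turned to 0.02, and 36 of the 89 member calls over all comparisons were lost. The call of CYT1 was lost without mutant cytoplasm replicate 1 or 2 or mutant total replicate 1 or 2 (-0.45, -0.37, -0.44 and -0.40). QCR9 stood at the low end, with 31.4, 30.0 and 32.3 CPM in mutant cytoplasm against 82.2, 62.4 and 55.5 CPM in mutant total, a change of -1.12 ± 0.15 (SE), adjusted p = 0.000451 by edgeR. All 3 cytoplasm libraries lay below the 3 total libraries. In WT it had 22.4, 33.2 and 25.7 CPM in cytoplasm against 33.1, 48.7 and 39.4 CPM in total, which overlapped, at -0.54 ± 0.20 (SE), adjusted p = 0.0623 by edgeR, and it was lower with the block, at -0.55 ± 0.09 (SE), adjusted p = 0.00209 by edgeR. QCR7, read from a feature that covers 47.7% of it, was outside the rule, and was higher in the mutant in both fractions, at 0.86 in total lysate and 0.66 in cytoplasm.

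In complex IV, cytochrome c oxidase, 6 of 8 were higher in mutant total lysate. COX5A and COX5B encode alternative forms of subunit V, COX5A the form of aerobic and COX5B, which has an intron, the form of oxygen-poor cells. COX5A, on chromosome XIV, had 139, 159 and 121 CPM in mutant total lysate against 72.7, 93.9 and 70.9 CPM in WT. COX5A had 77.1, 62.5 and 87.2 CPM in mutant cytoplasm against 48, 59.4 and 49.2 CPM in WT cytoplasm. It did not overlap between strains, at 0.84 ± 0.15 (SE), adjusted p = 0.00175 by edgeR in total lysate and 0.55 ± 0.16 (SE), adjusted p = 0.015 by edgeR in cytoplasm. COX5B, on chromosome IX, had 57.5, 94.4 and 61.2 CPM in mutant total lysate against 76.2, 128 and 119 CPM in WT. COX5B had 45, 51.4 and 53 CPM in mutant cytoplasm against 56, 78.6 and 69.3 CPM in WT cytoplasm. In total lysate its libraries overlapped, at -0.58 ± 0.24 (SE), adjusted p = 0.0631 by edgeR, while in cytoplasm it was lower, at -0.43 ± 0.16 (SE), adjusted p = 0.0412 by edgeR. That call was lost without mutant cytoplasm replicate 1, 2 or 3 or WT cytoplasm replicate 2 or 3 (-0.34, -0.44, -0.47, -0.33 and -0.42), and the value turned to 0.10 when scaled by library totals. The cytoplasmic call of COX5A was lost without WT cytoplasm replicate 3 (0.51). Both readings take in part of a neighbour, MSG5 for COX5A and HOS4 for COX5B. A feature of COX5B free of HOS4 gave -0.67 ± 0.27 in total lysate and -0.53 ± 0.20 in cytoplasm (SE), adjusted p = 0.0647 and 0.0432 by edgeR. Across WT total libraries COX5A stood at 63.6 ± 10.3 and COX5B at 62.3 ± 16 RPKM, which overlap, and across mutant total libraries at 112 ± 15.5 and 41 ± 11.8 RPKM (mean and SD, n = 3). With the length of the gene inside the feature the means were 89.45 for COX5A and 133.5 for COX5B in WT total. In mutant total they were 158 and 88.03, so the WT ratio of these genes depends on the length used.

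COX12, the subunit VIb, had 87.8, 73.6 and 71.5 CPM in mutant total lysate against 33.9, 48 and 38.1 CPM in WT. COX12 had 42, 37.2 and 36.9 CPM in mutant cytoplasm against 19.4, 30.8 and 25.7 CPM in WT cytoplasm. The strains stood apart in both fractions, at 0.98 ± 0.15 (SE), adjusted p = 0.000694 by edgeR in total lysate and 0.63 ± 0.18 (SE), adjusted p = 0.0118 by edgeR in cytoplasm. COX8, COX7, COX6 and COX9, further small subunits, were higher in mutant total lysate by 0.93, 0.70, 0.62 and 0.41. COX8 was also higher in mutant cytoplasm, by 0.56, a call lost without WT cytoplasm replicate 3 (0.51). In total lysate the call of COX7 was lost without mutant total replicate 1 or WT total replicate 1 or 3 (0.51, 0.57 and 0.65), and that of COX9 without mutant total replicate 1 or 2 or WT total replicate 1 or 3 (0.37, 0.34, 0.42 and 0.32). COX4, the subunit IV, had 194, 179 and 140.4 CPM in mutant total lysate against 185, 175 and 151 CPM in WT. COX4 had 90.7, 84.1 and 119 CPM in mutant cytoplasm against 119, 125 and 124 CPM in WT cytoplasm. Total libraries overlapped and cytoplasmic ones did not, but neither difference passed, at 0.03 ± 0.15 and -0.31 ± 0.16 (SE), adjusted p = 0.893 and 0.123 by edgeR. The COX4 feature also holds the ribosomal protein gene RPS26A. On a feature without it, where libraries overlapped too, COX4 was higher in mutant total lysate, at 0.47 ± 0.16 (SE), adjusted p = 0.0316 by edgeR. COX13, covered to 49.4% by its best feature and so outside the rule, was higher in mutant total lysate by 1.11 and in cytoplasm by 0.81.

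All 8 complex IV genes were lower in cytoplasm than in total in the mutant, from -1.03 to -0.54, and 4 of 8 in WT, where all 8 values were below 0 and all 8 were lower with the replicate block. These counts are on the TMM scale, and by library totals fewer of all members were lower in the mutant. COX12 was lower, at -1.03 ± 0.12 (SE), adjusted p = 0.000279 by edgeR in the mutant and -0.63 ± 0.20 (SE), adjusted p = 0.0419 by edgeR in WT, with no overlap of cytoplasm and total in either strain. COX4 was lower, at -0.83 ± 0.18 (SE), adjusted p = 0.00346 by edgeR in the mutant and -0.44 ± 0.12 (SE), adjusted p = 0.0188 by edgeR in WT, and COX5A at -0.91 in the mutant and -0.57 in WT. The WT calls were lost for COX12 without WT cytoplasm replicate 1 or 3 or WT total replicate 2 or 3 (-0.47, -0.65, -0.48 and -0.67), for COX4 without WT cytoplasm replicate 3 or WT total replicate 1 or 2 (-0.47, -0.40 and -0.43) and for COX5A without WT cytoplasm replicate 3 or WT total replicate 2 (-0.54 and -0.43).

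In the ATP synthase 1 of 14 genes was higher and 2 were lower in mutant total lysate, and 0 were higher and 5 lower in mutant cytoplasm. Its catalytic head turns the proton gradient into ATP, with ATP1 as the alpha and ATP2 as the beta subunit. ATP1, on chromosome II, had 499.8, 720 and 621 CPM in mutant total lysate against 609.9, 779 and 678 CPM in WT. ATP1 had 276, 269 and 391 CPM in mutant cytoplasm against 432, 491 and 472 CPM in WT cytoplasm. Total libraries overlapped, at -0.15 ± 0.17 (SE), adjusted p = 0.492 by edgeR, whereas the cytoplasmic ones did not, at -0.56 ± 0.18 (SE), adjusted p = 0.0223 by edgeR. ATP2 had 748, 999.8 and 865 CPM in mutant total lysate against 793, 1116 and 892 CPM in WT. ATP2 had 460.5, 454 and 623 CPM in mutant cytoplasm against 685, 931 and 801 CPM in WT cytoplasm. It showed the same pattern, -0.08 ± 0.18 in total lysate (SE), adjusted p = 0.724 by edgeR, and -0.63 ± 0.19 (SE), adjusted p = 0.0158 by edgeR in cytoplasm. ATP3, the gamma subunit of the rotating stalk, had 305, 314 and 288 CPM in mutant total lysate against 262, 329 and 282 CPM in WT. ATP3 had 165, 165 and 208 CPM in mutant cytoplasm against 264, 301 and 318 CPM in WT cytoplasm. Total libraries overlapped and cytoplasmic ones did not, at -0.69 ± 0.16 (SE), adjusted p = 0.00419 by edgeR in cytoplasm. The call of ATP1 was lost without mutant cytoplasm replicate 1 or 2 or WT cytoplasm replicate 3 (-0.46, -0.44 and -0.55), and that of ATP2 without mutant cytoplasm replicate 1 or 2 (-0.54 and -0.54). All 3 are shared readings. On features free of their neighbours the cytoplasmic change was -0.86 ± 0.13 for ATP1 and -0.67 ± 0.19 for ATP2, both passing (adjusted p = 0.000429 and 0.0139 by edgeR). That of ATP3, -0.17 ± 0.20, did not pass (adjusted p = 0.478 by edgeR). Those features cover 26.6% of ATP1, 11.3% of ATP2 and 49.3% of ATP3.

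ATP17, the membrane subunit f, is read alone and was lower in the mutant. It had 52.8, 33 and 44.5 CPM in mutant total lysate against 52.7, 85.2 and 65.8 CPM in WT, which overlap, and 21.9, 24.9 and 19.6 CPM in mutant cytoplasm against 29.3, 38.5 and 33.2 CPM in WT, which do not. The log2 fold change was -0.62 ± 0.21 (SE), adjusted p = 0.0299 by edgeR in total lysate, and -0.58 ± 0.16 (SE), adjusted p = 0.00994 by edgeR in cytoplasm. The call in total lysate was lost without mutant total replicate 2 or 3 or WT total replicate 2 or 3 (-0.46, -0.62, -0.42 and -0.66). INH1, on chromosome IV, the small protein that blocks ATP hydrolysis by the enzyme, fell furthest of all members. It had 30.7, 31.8 and 29.3 CPM in mutant total lysate against 44.8, 59.2 and 57.7 CPM in WT. INH1 had 19.6, 19.3 and 24.8 CPM in mutant cytoplasm against 34.4, 46 and 48.9 CPM in WT cytoplasm. No library overlapped, at -0.80 ± 0.13 (SE), adjusted p = 0.000787 by edgeR in total lysate and -1.0 ± 0.18 (SE), adjusted p = 0.000999 by edgeR in cytoplasm, and 27.3% of its feature is LYS20, a gene of lysine synthesis. ATP14, the subunit h, was the only member of the enzyme higher in mutant total lysate, by 0.49 ± 0.14 (SE), adjusted p = 0.0136 by edgeR. Its call was lost without WT total replicate 3 (0.39). The other 8, ATP4, ATP5, ATP7, ATP15, ATP16, ATP18, ATP20 and TIM11, ranged from -0.12 for ATP20 to 0.32 for ATP7 in total lysate, and none of them passed.

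Cytoplasm against total, 12 of 14 ATP synthase genes were lower in the mutant and 6 of 14 in WT, or 10 of 14 with the replicate block. These counts too are on the TMM scale, and by library totals fewer of the 40 members were lower in the mutant. TIM11 turned to 0.02 in the mutant when scaled that way. ATP5, the subunit that ties the head to the peripheral stalk, had 61, 49.1 and 73.4 CPM in mutant cytoplasm against 138, 135 and 129.9 CPM in mutant total, and 52.8, 74.7 and 66.2 CPM in WT cytoplasm against 106, 133 and 94.2 CPM in WT total. The fractions did not overlap in either strain, at -1.16 ± 0.16 (SE), adjusted p = 0.000425 by edgeR in the mutant and -0.75 ± 0.18 (SE), adjusted p = 0.0145 by edgeR in WT. ATP17 changed by -1.0 ± 0.17 (SE), adjusted p = 0.00144 by edgeR in the mutant and by -0.98 ± 0.20 (SE), adjusted p = 0.0076 by edgeR in WT, where it stood lowest of the 40. ATP1 changed by -1.0 in the mutant and -0.54 in WT, and ATP2 by -0.79 in the mutant, while its -0.18 in WT did not pass. In WT the call of ATP1 was lost without WT cytoplasm replicate 3 or WT total replicate 2 (-0.56 and -0.44), and that of ATP5 without WT cytoplasm replicate 3 (-0.78). The 2 members with no call in the mutant, ATP15 and ATP20, share features that are 91.9 and 89.6% other genes, and on these they passed in none of the 5 comparisons without the block. A feature free of neighbours covers 14.2% of ATP20 and held few reads, on average 0.392 CPM in WT total and 2.43 in mutant total. That feature is the one of AGC1, the coding gene on the opposite strand, and the part of ATP20 in its reads was not tested. The feature was higher in the mutant by 2.63 ± 0.43 in total lysate and 1.48 ± 0.40 in cytoplasm (SE). In total lysate it passed the filter on low counts through its mutant counts. It was also higher in mutant cytoplasm than in mutant total, by 1.14 ± 0.38 (SE).

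**Figure D3:**
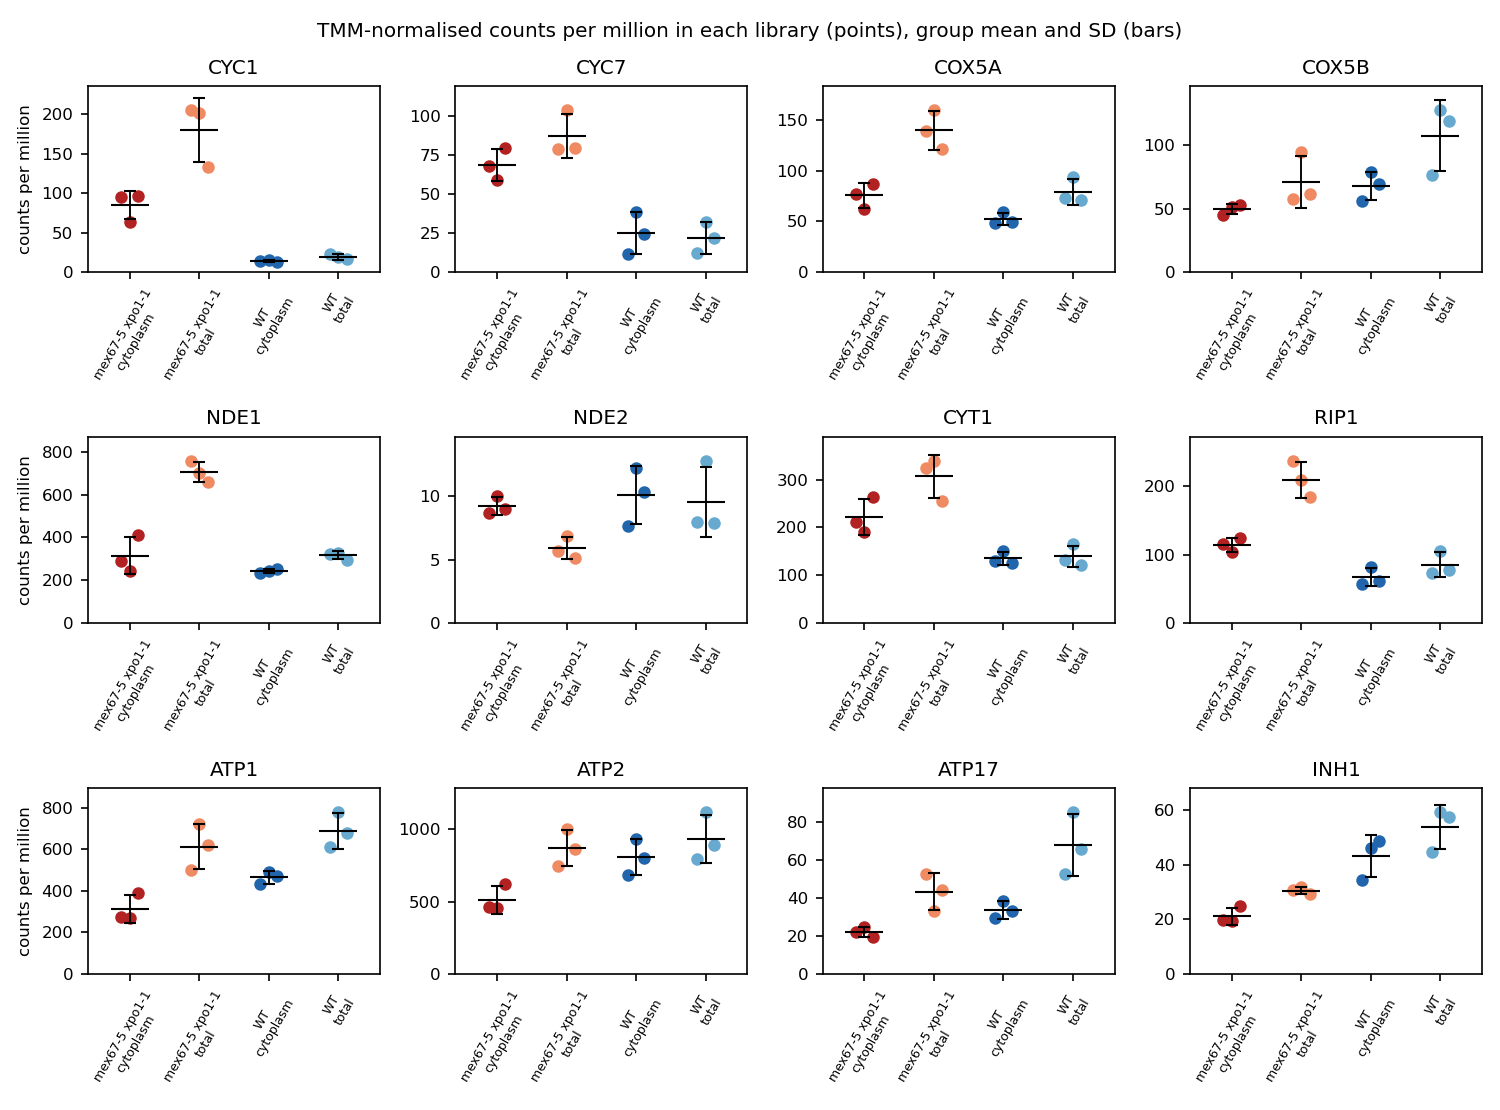
TMM-normalised CPM (y axis, from 0) of 12 respiratory chain genes in the 3 libraries of each group, with the group mean and SD. From left to right in each panel the groups are mutant cytoplasm, mutant total, WT cytoplasm and WT total. CYC1 has 133 to 205 CPM in mutant total and 15.9 to 23.3 CPM in WT total, whereas ATP1 and ATP2 overlap between the total lysates.

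The NADH dehydrogenases moved in different directions. NDE1, on chromosome XIII, the main external enzyme, which oxidises cytosolic NADH, had 756, 701 and 661 CPM in mutant total lysate against 325, 329 and 295 CPM in WT. NDE1 had 291, 244 and 409 CPM in mutant cytoplasm against 232, 243 and 250.5 CPM in WT cytoplasm. Total libraries stood apart, at 1.18 ± 0.13 (SE), adjusted p = 0.000103 by edgeR, and cytoplasmic ones overlapped, at 0.40 ± 0.20 (SE), adjusted p = 0.101 by edgeR. NDE2, the second external enzyme, had 5.68, 6.89 and 5.16 CPM in mutant total lysate against 7.98, 12.8 and 7.90 CPM in WT. NDE2 had 8.70, 10.1 and 9.01 CPM in mutant cytoplasm against 7.70, 12.2 and 10.4 CPM in WT cytoplasm. It was lower in mutant total lysate, -0.67 ± 0.21 (SE), adjusted p = 0.0237 by edgeR, and overlapped in cytoplasm, at -0.11 ± 0.19 (SE), adjusted p = 0.636 by edgeR. The call of NDE2 was lost without mutant total replicate 1 or 3 or WT total replicate 2 (-0.62, -0.55 and -0.40). Per kilobase NDE1 stood at 374 ± 25.3 and NDE2 at 3.26 ± 0.49 RPKM in mutant total lysate, and at 167 ± 9.99 and 5.27 ± 1.54 RPKM in WT total lysate, so NDE1 lay above NDE2 in every library. NDI1, the internal enzyme that oxidises NADH of the matrix, was higher in the mutant by 0.97 in total lysate and by 0.56 in cytoplasm, where the call was lost without mutant cytoplasm replicate 3 or WT cytoplasm replicate 3 (0.48 and 0.45).

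NDE1 was the member with the lowest cytoplasm to total ratio in the mutant, -1.19 ± 0.20 (SE), adjusted p = 0.00129 by edgeR, and in WT it was lower too, at -0.36 ± 0.11 (SE), adjusted p = 0.0317 by edgeR. The WT call of NDE1 was lost without WT cytoplasm replicate 1 or 3 or WT total replicate 1, 2 or 3 (-0.33, -0.40, -0.35, -0.33 and -0.41). NDE2 was the only member higher in mutant cytoplasm than in mutant total, by 0.62 ± 0.15 (SE), adjusted p = 0.00742 by edgeR, with no overlap of the fractions, and did not pass in WT, at 0.12 ± 0.24 (SE), adjusted p = 0.713 by edgeR. Antisense reads on the own feature of NDE2 were higher in mutant cytoplasm too, by 0.81 ± 0.15 (SE), adjusted p = 0.00194 by edgeR, with 212, 239 and 201 counts in mutant cytoplasm against 102, 118 and 119 in mutant total. The 2 strands of NDE2 differ by 1.09 on the log2 scale per base in WT total lysate, and their part in each other's value was not tested.

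Complex II, succinate dehydrogenase, which also works in the citric acid cycle, has no member read alone, so its values hold neighbours. SDH1, the flavoprotein, had 268, 339 and 278 CPM in mutant total lysate against 180.1, 254 and 188 CPM in WT. SDH1 had 224, 228 and 286 CPM in mutant cytoplasm against 153, 194 and 156 CPM in WT cytoplasm. It was higher by 0.53 ± 0.17 (SE), adjusted p = 0.0244 by edgeR in total lysate and 0.58 ± 0.17 (SE), adjusted p = 0.0128 by edgeR in cytoplasm, with no overlap of strains. The call was lost in total lysate without mutant total replicate 2 or WT total replicate 1 or 3 (0.42, 0.43 and 0.45), and in cytoplasm without WT cytoplasm replicate 3 (0.52). The feature of SDH2, the iron-sulfur subunit, had 722, 933 and 715 CPM in mutant total lysate against 838, 980.4 and 871 CPM in WT. SDH2 had 799.9, 791 and 803 CPM in mutant cytoplasm against 1195, 1274 and 1349 CPM in WT cytoplasm. It was lower in mutant cytoplasm, -0.65 ± 0.15 (SE), adjusted p = 0.00415 by edgeR, and higher in WT cytoplasm than in WT total, 0.54 ± 0.12 (SE), adjusted p = 0.0109 by edgeR. That of SDH3, a membrane anchor, had 191, 188 and 187 CPM in mutant total lysate against 170, 202 and 184 CPM in WT. SDH3 had 176, 169 and 177 CPM in mutant cytoplasm against 232, 254 and 254 CPM in WT cytoplasm. It was lower in mutant cytoplasm, -0.48 ± 0.14 (SE), adjusted p = 0.0117 by edgeR, which turned to 0.05 when scaled by library totals, and higher in WT cytoplasm than in WT total, 0.44 ± 0.12 (SE), adjusted p = 0.0206 by edgeR. For SDH3 the call between strains was lost without mutant cytoplasm replicate 1 or 2 (-0.47 and -0.45), and that between WT fractions without WT cytoplasm replicate 2 or 3 or WT total replicate 1 or 3 (0.40, 0.40, 0.37 and 0.43), as was that of SDH2 without WT cytoplasm replicate 3 or WT total replicate 3 (0.48 and 0.51). Other genes take 90.4% of the feature read for SDH2 and 79.8% of that read for SDH3. SDH4, the other anchor, was lower in mutant cytoplasm than in mutant total, at -0.42, which turned to 0.08 when scaled by library totals. The call of SDH4 was lost without mutant cytoplasm replicate 1 or 2 (-0.40 and -0.37). A feature free of its neighbours, which covers 42% of SDH4, gave -0.36 ± 0.12 (SE) between mutant fractions, adjusted p = 0.0295 by edgeR. In cytoplasm between strains that feature gave -0.72 ± 0.16 (SE), adjusted p = 0.00297 by edgeR. The shared reading, at -0.30 ± 0.13 (SE), did not pass there (adjusted p = 0.0736 by edgeR).

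Whether the fractions differed more in the mutant than in WT was tested as an interaction of strain and fraction, the cytoplasm to total ratio of the mutant over that of WT. The change was below 0 for 35 of 40 members, with a median of -0.35, beside -0.10 for all features and -0.18 for all coding genes read alone. Only ATP3, at -0.77 ± 0.20 (SE), adjusted p = 0.0258 by edgeR, and SDH3, at -0.53 ± 0.16 (SE), adjusted p = 0.0474 by edgeR, passed, that is 2 of 40 lower and 0 higher, where 5.68% of all features were lower and 4.57% higher. Neither is read alone, and of the 12 fits that left out 1 library 4 kept the call of ATP3 and 1 that of SDH3. At an unadjusted p under 0.05 there were 7, with ATP4, ATP14, COX6, SDH2 and NDE1 besides these, and the lowest value was that of NDE1, -0.78 ± 0.23 (SE), adjusted p = 0.0516 by edgeR. None of the 22 members read alone passed. By DESeq2 3 of 40 passed. On the feature free of its neighbours ATP3 did not pass, at -0.42 ± 0.26 (SE), adjusted p = 0.341 by edgeR, while that of ATP1 did, at -0.73 ± 0.18 (SE), adjusted p = 0.0227 by edgeR.

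Respiratory genes of the mitochondrial chromosome were read the same way. Their transcripts stay inside the organelle. All 6 that could be tested, COX1, COX2, COX3, COB, ATP6 and OLI1, were lower in cytoplasm than in total in both strains, with a median of -1.94 in the mutant and -0.98 in WT. COX1, the catalytic core of complex IV, had 4106, 4246 and 2182 CPM in mutant cytoplasm against 23021, 11719 and 13979 CPM in mutant total, and 3530, 3476 and 3897 CPM in WT cytoplasm against 10059, 13849 and 9307 CPM in WT total. Mutant cytoplasm replicate 3 was lowest for each of the 6. Between strains 0 of the 6 passed in total lysate by edgeR, with 1, COX2, at an unadjusted p under 0.05, and 1, ATP6, was lower in mutant cytoplasm. The mitochondrial chromosome took 3.31 to 6.41% of the counts in mutant cytoplasm, 9.47 to 14.3% in mutant total, 2.32 to 2.70% in WT cytoplasm and 4.34 to 6.18% in WT total. Its part in the lower cytoplasmic values of the nuclear-encoded genes was not tested.

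Antisense reads, taken from each gene's own feature, were few. For 15 of the 42 members they averaged 40 counts or fewer over the 12 libraries, and 21 members face a coding gene whose mRNA falls on the same feature. Among the 21 with no coding gene opposite, 4 of the 8 tested were higher in mutant total lysate and 5 of the 12 tested were higher and 1 lower in mutant cytoplasm, each against WT. Over all features tested, 26.9% were higher and 25.6% lower in total lysate, and 32.3% higher and 28.9% lower in cytoplasm. The filter takes the mean over both groups, so features low in WT were tested only where the mutant was high. These counts therefore lean toward higher. QCR2 changed most, with 84, 64 and 99 antisense counts in mutant total lysate against 19, 18 and 13 in WT, and 257, 313 and 254 in mutant cytoplasm against 14, 45 and 29 in WT. It passed the filter through its mutant counts. The strains did not overlap, at 2.05 ± 0.25 (SE), adjusted p = 0.000201 by edgeR in total lysate and 2.97 ± 0.26 (SE), adjusted p = 1.9e-05 by edgeR in cytoplasm, while the mRNA of QCR2 did not pass in either. Antisense of COX5B was also higher in the mutant, by 0.85 ± 0.23 (SE), adjusted p = 0.0125 by edgeR in total lysate and 1.16 ± 0.24 (SE), adjusted p = 0.00214 by edgeR in cytoplasm. Antisense of COX6 was higher in WT cytoplasm than in WT total, with 50, 242 and 83 counts against 27, 25 and 17, 2.33 ± 0.48 (SE), adjusted p = 0.00828 by edgeR, and WT cytoplasm replicate 2 held most of them. It passed the filter through its WT cytoplasm counts, so this test too leaned toward higher. The feature of CYC7, which counts UTR2 as well, was lower in the mutant, at -2.21 ± 0.28 (SE), adjusted p = 0.00016 by edgeR in cytoplasm and -1.25 ± 0.16 (SE), adjusted p = 0.000302 by edgeR in total lysate, opposite in sign to the CYC7 mRNA.

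Regulators of respiration were measured from the same counts. HAP1, the heme-responsive activator, had 144, 175 and 142 CPM in mutant total lysate against 423, 402 and 425 CPM in WT, and 207, 196 and 172 CPM in mutant cytoplasm against 789.8, 589 and 707 CPM in WT. The feature read for HAP1 was lower, at -1.42 ± 0.13 (SE), adjusted p = 3.99e-05 by edgeR in total lysate and -1.84 ± 0.17 (SE), adjusted p = 2.94e-05 by edgeR in cytoplasm. It is shared with YLR256W-A, and the part of that gene in these values was not tested. The reference strain S288C and its derivatives carry a transposon in HAP1, and whether the mutant strain does was not tested. HAP4, the regulated subunit of the Hap2/3/4/5 complex, had 240.2, 250.5 and 241 CPM in mutant total lysate against 143, 229 and 196 CPM in WT. The libraries did not overlap, and the difference of 0.38 ± 0.17 (SE) did not pass (adjusted p = 0.0838 by edgeR). HAP2, HAP3 and HAP5, the other subunits, stood at 0.23, -0.20 and 0.08 in total lysate, none passing, and HAP5 was higher in mutant cytoplasm by 0.71. HAP5 is read alone, whereas HAP4 shares its feature with SLD2, HAP2 with MTO1, and HAP3 with PIM1 and MCM2. ROX1, the repressor of genes expressed without oxygen, had 127, 126 and 99 CPM in mutant total lysate against 39.3, 40.5 and 35.7 CPM in WT, a change of 1.63 ± 0.13 (SE), adjusted p = 2.03e-05 by edgeR. The feature read for ROX1 is shared with YPR064W. Of the 13 regulators, 3 were higher and 2 lower in mutant total lysate, and 4 higher and 1 lower in mutant cytoplasm, where 26.9 and 25.6% of all features were higher and lower in total lysate and 32.3 and 28.9% in cytoplasm. Scaled by library totals the regulators gave 6 higher and 1 lower in total lysate and 10 higher and 1 lower in cytoplasm.

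Other genes of mitochondrial metabolism were taken from 9 further lists, counting the genes with a reading. Over all coding genes read, 18.1% were higher and 33.7% lower in mutant total lysate than in WT, and 19.5% higher and 40.7% lower in cytoplasm. Of 12 citric acid cycle genes 0 were higher and 4 lower in mutant total lysate than in WT, and 0 higher and 8 lower in cytoplasm, with PYC2, a pyruvate carboxylase, at -0.77 ± 0.21 (SE), adjusted p = 0.0114 by edgeR in total lysate. Of 8 heme synthesis genes 0 were higher and 5 lower in both fractions, with HEM13, the coproporphyrinogen oxidase, at -0.99 ± 0.10 (SE), adjusted p = 8.66e-05 by edgeR. Among 12 mitochondrial import genes 0 were higher and 8 lower in both, with TIM50, of the inner-membrane translocase, at -1.33 ± 0.11 (SE), adjusted p = 1.87e-05 by edgeR. Of 10 carriers and porin genes 1 was higher and 4 lower in total lysate and 1 higher and 8 lower in cytoplasm, with AAC3, an ADP/ATP carrier, at -1.58 ± 0.15 (SE), adjusted p = 4.33e-05 by edgeR. Of 6 coenzyme Q synthesis genes 0 were higher and 2 lower in total lysate, with COQ5, a methyltransferase of that pathway, at -0.46 ± 0.15 (SE), adjusted p = 0.0274 by edgeR, and 0 and 3 in cytoplasm. Of 19 assembly factors and translation activators for complex IV, 2 were higher and 3 lower in total lysate, with COX10, which acts in heme A synthesis, at 0.85, and 4 were higher and 7 lower in cytoplasm. Of 7 factors for complex III, 3 were higher and 1 lower in total lysate, with CBP2, a mitochondrial splicing factor, at 0.69, and 2 and 2 in cytoplasm. Of 11 factors for the ATP synthase, 2 were higher and 1 lower in total lysate, with STF1, a stabiliser of the INH1 complex, at -0.91, and 2 and 2 in cytoplasm. Of the 3 genes for mRNA binding at mitochondria 2 were lower in both, with OM14, an outer-membrane protein that binds ribosomes, at -1.82 ± 0.19 (SE), adjusted p = 4.7e-05 by edgeR in cytoplasm. Scaled by library totals, citric acid cycle genes gave 2 higher and 2 lower in total lysate and 2 and 1 in cytoplasm, heme synthesis genes 2 and 3 and then 1 and 3, import genes 1 and 1 and then 3 and 4, and carriers 1 and 3 and then 1 and 4. The coenzyme Q genes gave 0 and 0 and then 2 and 2, complex IV factors 7 and 1 and then 10 and 2, complex III factors 6 and 0 and then 5 and 0, ATP synthase factors 7 and 1 in both, and the mRNA binding genes 0 and 1 and then 0 and 2. The counts of these lists thus depend on the scaling.

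Between the fractions, 38.9% of all coding genes read were lower and 19.8% higher in cytoplasm than in total in the mutant, and 20.5% were lower and 21.8% higher in WT. Citric acid cycle genes were lower for 9 of 12 in the mutant and 4 of 12 in WT, and import genes for 10 of 12 and 6 of 12, with 0 higher in either list. Heme synthesis genes gave 6 lower and 1 higher of 8 in the mutant and 3 lower and 0 higher in WT, and carriers 5 lower and 1 higher of 10 in the mutant and 0 lower and 2 higher in WT. The medians of the citric acid cycle were -0.59 in the mutant and -0.27 in WT, and those of the regulators 0.20 and 0.15, beside -0.77 and -0.36 for the respiratory chain genes. Complex III factors gave 5 lower and 1 higher of 7 in the mutant and 2 lower and 1 higher in WT. Complex IV factors gave 8 lower and 2 higher of 19 in the mutant and 2 lower and 4 higher in WT, and ATP synthase factors 4 lower and 2 higher of 11 in the mutant and 2 lower and 4 higher in WT. Coenzyme Q genes gave 3 lower and 0 higher of 6 in the mutant and 1 lower and 2 higher in WT, the regulators 3 lower and 3 higher of 13 in the mutant and 1 lower and 3 higher in WT, and the mRNA binding genes 1 lower and 1 higher of 3 in the mutant and 0 lower and 2 higher in WT. With the replicate block, 30.0% of coding genes read were lower in WT, with 6 of 12 citric acid cycle genes, 5 of 8 heme synthesis genes, 7 of 12 import genes, 4 of 11 ATP synthase factors, 2 of 6 coenzyme Q genes, 1 of 10 carriers and 3 of 13 regulators.

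The fraction counts of the lists depended on the scaling as well. By library totals the mutant gave 4 lower and 1 higher for the citric acid cycle, 3 lower and 2 higher for import, 2 lower and 1 higher for heme synthesis and 0 lower and 4 higher for carriers. Complex IV factors gave 0 lower and 10 higher, ATP synthase factors 0 and 5, complex III factors 0 and 2, coenzyme Q genes 1 and 3, and the regulators 0 and 9.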

How the data were processed

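The deposited counts are reads per annotated feature in 12 libraries of 50-base single reads. Per the labels the kit does not keep strand. The counts do differ by strand, with the opposite feature above the own feature for 37 of 40 members and a median log2 ratio of 5.94. Per the study the authors aligned with STAR 2.5.2a to sacCer3 and counted with featureCounts 1.5.0-p1 over genes, untranslated regions and non-coding transcripts. Overlapping features on 1 strand hold the same reads, and why reads of a gene fall on the opposite feature was not tested. From these counts, edgeR 4.0.16 in R 4.3.3 fitted quasi-likelihood models with TMM scaling over features with a mean count above 40, 1 fit for each of 5 comparisons: cytoplasm against total in each strain, mutant against WT in each fraction, and the change of the ratio between strains. P-values were adjusted by Benjamini-Hochberg over all features and called under 0.05. The fits were tested on simulated counts. RPKM used the feature's exon length. Depth, 24532091 to 37361004 counts per library, and 3 libraries per group limit the precision.

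A member's mRNA was the opposite-strand feature covering most of it, at least 50%. Members read alone, features free of neighbours (at least 10% of the gene), a coverage of 45% and the length of the gene inside the feature were alternatives chosen after seeing the data. Planned ones were DESeq2 1.42.0, library totals, no filter, the replicate block, 1 model over 12 libraries, an adjusted p under 0.01, a strict feature (80% cover and 80% inside the gene) and leaving out each library. The labels number replicates in each group. Same-numbered WT cytoplasm and total libraries had correlations of 0.245, 0.394 and 0.115 and were taken as paired. Only the fit with the replicate block uses this pairing, and the main fits are unpaired. The other comparisons were not taken as paired. Their correlations were -0.355 to 0.383 between mutant fractions, 0.0312 to 0.0566 between total lysates and 0.0936 to 0.274 between cytoplasms of the strains.

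Values in every library are given for the 3 largest changes each way past the threshold without overlap in each comparison, the isoform pairs, and ATP1, ATP2, COR1, QCR2, SDH1 and COX4. Of the 10 other lists (regulators, citric acid cycle, complex III, IV and ATP synthase factors, coenzyme Q, heme, carriers, import, mRNA binding) the gene with the largest called change in a comparison is named, and the HAP genes. The members and lists were chosen with earlier results of these data known.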

Additional observations from a re-analysis of the deposited data

Results flagged for a closer look

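The interaction of strain and fraction passed the test for 2 of 40 members, both lower, where 5.68% of all features were lower. Of the 12 fits that left out 1 library, 4 kept the call of ATP3 and 1 that of SDH3, and by library totals 0 members passed. ATP3 had 165, 165 and 208 CPM in mutant cytoplasm against 305, 314 and 288 CPM in mutant total, and 264, 301 and 318 CPM in WT cytoplasm against 262, 329 and 282 CPM in WT total, a change of -0.77 ± 0.20 (SE), adjusted p = 0.0258 by edgeR. Its reading is 68.9% FIG1 and FAT1, and the feature free of them, which covers 49.3% of ATP3, gave -0.42 ± 0.26 (SE), adjusted p = 0.341 by edgeR. SDH3 had 176, 169 and 177 CPM in mutant cytoplasm against 191, 188 and 187 CPM in mutant total, and 232, 254 and 254 CPM in WT cytoplasm against 170, 202 and 184 CPM in WT total, a change of -0.53 ± 0.16 (SE), adjusted p = 0.0474 by edgeR. Its reading is 79.8% CTK1 and TGL1, and no feature free of them covered enough of SDH3 to be read. The part of the neighbouring genes in these values was not tested.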

How the results depend on the processing

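The limits are set by the readings, the scaling and 3 libraries a group. Of 89 single calls of members, 52 held without each library in turn, DESeq2 kept 89, library totals kept 47 and turned 6, and an adjusted p under 0.01 kept 51. Leaving out 1 library, the members lower in WT cytoplasm than in WT total numbered 1 to 19 and higher 0 to 2 (median -0.48 to -0.23), in the mutant 28 to 34 and 1 (-0.80 to -0.71). For mutant against WT total lysate 12 to 24 were higher and 1 to 4 lower (0.25 to 0.45), for mutant against WT cytoplasm 5 to 12 and 4 to 11 (-0.10 to 0.08), and for the ratio change 0 higher and 0 to 2 lower (-0.50 to -0.24). Library totals gave 14 lower and 4 higher in mutant fractions (-0.27), 2 lower in WT fractions, 1 lower in mutant total lysate, 22 higher and 1 lower in mutant cytoplasm against WT (0.50), and 0 for the ratio (-0.04), a median level of 56.8 RPKM in mutant cytoplasm, and turned TIM11 and CYT1 to 0.02 and SDH4 to 0.08 in mutant fractions, and COX5B to 0.10, QCR6 to 0.15 and SDH3 to 0.05 in cytoplasm between strains. The replicate block gave 28 lower and 4 higher in WT fractions and 1 for the ratio, and moved no other count by over 1.5 times. Without a filter 1 was higher in WT fractions and 1 lower for the ratio. At an adjusted p under 0.01, 0 were higher and 1 lower in WT fractions, 1 lower in total lysate, 4 and 4 in cytoplasm between strains and 0 for the ratio. With the strict feature, which leaves 4 members, 0 were higher and 2 lower in WT fractions, 3 lower in mutant fractions (-1.02), 1 higher and 1 lower in total lysate, 0 and 0 in cytoplasm between strains and 0 for the ratio. Read alone, 0 were higher and 9 lower in WT fractions, 19 lower in mutant fractions, 1 lower in cytoplasm between strains (0.29), 0 for the ratio, and the median in total lysate was 0.56. On free features 0 were higher in WT fractions, 2 in mutant fractions, 5 lower in cytoplasm between strains (0.21) and 1 for the ratio. With the length of the gene inside the feature the median levels were 93.9 RPKM in mutant cytoplasm, 165 in mutant total, 76.1 in WT cytoplasm and 108 in WT total. The cause of these shifts was not tested.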
